A study of Mus musculus with 16 samples.

Results

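Foxo1 and 9 genes of muscle breakdown and growth arrest were measured in the gastrocnemius, a muscle of the calf, of mice on 2 high-fat diets with rosiglitazone. The genes were chosen by name: Foxo1, Fbxo32, Trim63, Cdkn1a, Gadd45a, Klf15, Sesn1, Bnip3, Map1lc3b and Gabarapl1. The arrays carried 17 probes for these 10 of 27745 named genes and transcripts, among 41174 probes besides controls. All 17 probes passed the filter on weak signals that kept 19398 probes, and all 17 lay well above background in both dyes on all 16 arrays. Each of the 16 arrays held the RNA of 1 male C57BL/6N mouse. The mice were 3 months old at the start and received their diet for 8 weeks. The 8 cHF+ROSI mice were fed the corn-oil-based high-fat diet, of which lipids made up about 35% by weight, and which held 10 mg of rosiglitazone, a drug that activates PPARγ, per kg diet. The 8 cHF+F+ROSI mice received the same diet and drug, but a concentrate of n-3 LC-PUFA (EPA and DHA) replaced 15% of the dietary lipids. All mice measured singly on these arrays received rosiglitazone. All mice were fasted for 10 hours by day, re-fed Chow overnight and killed the next morning, so the values describe a re-fed muscle.

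FoxO transcription factors hold back growth and promote breakdown in skeletal muscle. Insulin and IGF-1 act through the kinase AKT, which phosphorylates FoxO proteins and keeps them out of the nucleus, while fasting and glucocorticoids raise their activity and also the Foxo1 mRNA. In the nucleus they are known to switch on the muscle ubiquitin ligases Fbxo32 (atrogin-1) and Trim63 (MuRF1), which mark contractile and other proteins for the proteasome, and several genes of autophagy, the pathway that delivers cell contents to the lysosome. The other members are textbook targets or partners of this programme: Cdkn1a (p21) and Gadd45a arrest growth, Sesn1 restrains the growth kinase mTORC1, Klf15 is a glucocorticoid-induced factor of amino acid breakdown, Bnip3 marks mitochondria for autophagy, and Map1lc3b and Gabarapl1 encode proteins that are attached to the autophagosome membrane. The arrays measure mRNA and say nothing of where FoxO protein was or how active it was.

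Forkhead proteins bind the letters GTAAACA, and the promoters of the members were searched for this motif. The table of promoter windows from RefSeq, GRCm38.p6, gave 11 windows for 9 of the 10 genes, each from 250 bases before to 50 bases after a transcription start. No window of Fbxo32 was analysed here. The motif, on either strand, was found in 2 windows, 1 of Trim63 and 1 of the 2 of Sesn1, against 3.65% of the 32851 windows of all genes. Trim63 and Sesn1 are shown because they held the motif and also moved together from mouse to mouse, as given further on. The stretch printed for Trim63 is the upstream part of its window at chr4:134314870-134315119, plus strand, and that for Sesn1 is the surroundings of its match at chr10:41810586-41810612, plus strand. Capitals mark the motif, which reads as its reverse complement in both.
Trim63: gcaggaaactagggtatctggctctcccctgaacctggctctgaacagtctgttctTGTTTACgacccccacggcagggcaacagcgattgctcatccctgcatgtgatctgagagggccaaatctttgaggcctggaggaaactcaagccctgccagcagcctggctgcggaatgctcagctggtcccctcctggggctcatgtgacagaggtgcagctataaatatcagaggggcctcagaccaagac
Sesn1: aaccttctacTGTTTACcagccttttg
The first base of the match lay at position -194 from the start of Trim63 and at position 23 after the start of Sesn1. The windows of Foxo1, Cdkn1a, Gadd45a, Klf15, Bnip3, Map1lc3b and Gabarapl1 did not hold these letters. A match says only that the letters are present.

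Every mouse's RNA was labelled with Cy5 and measured as a ratio to the same Cy3-labelled pool, which also held RNA of mice not analysed here, so each value given below is a log2 ratio to that pool. No dyes were swapped, and on each of the 4 slides positions 1 and 3 were always cHF+ROSI and positions 2 and 4 always cHF+F+ROSI, so that position and diet cannot be told apart. Array medians of the Cy5 signal ranged from 2.33 to 3.64 times background, and the lowest was that of cHF+ROSI replicate 1. The 7 skeletal muscle markers (Ckm, Acta1 and others) had mean signals between 6790 and 11900 times background. Of the 4 endothelial markers, Cdh5 and Kdr were lower with n-3 LC-PUFA at an unadjusted p of up to 0.05 (log2 differences of -0.16 and -0.27), and 0 of the 20 markers kept of adipocytes, macrophages, fibroblasts, red blood cells and Schwann cells and 0 of the 7 muscle markers passed that limit. The mean level of the 4 endothelial markers ranged from -0.28 to 0.05 on cHF+ROSI and from -0.35 to -0.07 on cHF+F+ROSI, and had r = -0.02 with Foxo1 over the deviations from the diet means. In the exact permutation test Cdh5 passed 0.05 (p = 0.00808) and Kdr did not (p = 0.0550). The part of the endothelial markers in the results below was not tested. In RNA from whole muscle, fewer cells of a type and less RNA per cell cannot be told apart.

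In 5 of the 8 cHF+F+ROSI mice Foxo1 exceeded the whole cHF+ROSI group, and in the other 3 it lay among the lower cHF+ROSI mice or below them. Both Foxo1 probes, which target the RefSeq transcript NM_019739 at chr3:52434190-52434249 and chr3:52437296-52437355 of mm8, showed this division. On the brighter probe, the cHF+ROSI mice lay at -1.06, -0.98, -0.95, -0.66, -0.44, -0.43, -0.24 and -0.06. The cHF+F+ROSI mice lay at -1.17, -0.97, -0.81, -0.02, 0.06, 0.19, 0.29 and 0.47. Replicates 2, 1 and 4 were the low ones and replicates 5, 8, 7, 3 and 6 the high ones. No cHF+F+ROSI mouse lay between -0.81 and -0.02, so that the 2 diets overlapped only at the lower end of the cHF+ROSI values. The cHF+F+ROSI mean was -0.25 ± 0.64 (SD, n = 8) and the cHF+ROSI mean -0.60 ± 0.37 (SD, n = 8). The log2 difference of 0.36 ± 0.23 (SE), with a 95% interval from -0.14 to 0.85, did not pass in limma (p = 0.147, adjusted p = 0.767) or in the exact two-sided permutation test (p = 0.189).

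On the second probe, the low cHF+F+ROSI replicates 4, 2 and 1 lay at -0.48, -0.42 and -0.34 and the high replicates 5, 7, 8, 6 and 3 at 0.41, 0.56, 0.60, 0.89 and 0.95. The cHF+ROSI mice lay between -0.67 and -0.04 (median -0.20). The same 5 mice stood above the whole cHF+ROSI group, here by a wider margin, and the same 3 lay within it. The log2 difference was 0.57 ± 0.21 (SE), a 1.48-fold higher ratio, with a 95% interval from 0.13 to 1.00. Its unadjusted p was within 0.05 in limma (p = 0.0132) and in the exact permutation test (p = 0.0272), but not after adjustment over all probes (adjusted p = 0.544). This probe is among those the study listed from these same samples, so that its p is not independent evidence. The 2 probes followed each other closely across mice, with r = 0.96 over 16 deviations from the diet means (rho = 0.94, permutation p = 1e-05 for r, the smallest that 100000 resamples can give).

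The difference was not equally large on the 4 slides. On the second probe it was 0.52, 0.14, 0.83 and 0.77 within slides 1, 2, 3 and 4, each with 2 mice per diet. On the brighter probe it was 0.06 and 0.03 on slides 1 and 2 and 0.77 and 0.56 on slides 3 and 4. All 8 values were above 0, but on slides 1 and 2 the brighter probe showed almost no difference. Slides 1, 2 and 4 each held 1 of the low and 1 of the high cHF+F+ROSI mice, and slide 3 held the other 2 high ones. The Cy3 signal of the pool differed between diets by 0.02 on the log2 scale on the second probe and by -0.04 on the brighter one (exact permutation, p = 0.730 and 0.452). The Cy5 signal of the mice differed by 0.83 and 0.50 (exact permutation, p = 0.0216 and 0.133). Without cHF+F+ROSI replicate 2 the difference on the brighter probe was 0.49 and came within the unadjusted limit of 0.05 (limma, adjusted p = 0.669), and leaving out the other mice 1 at a time gave 0.25 to 0.46 without passing it.

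**Figure D1:**
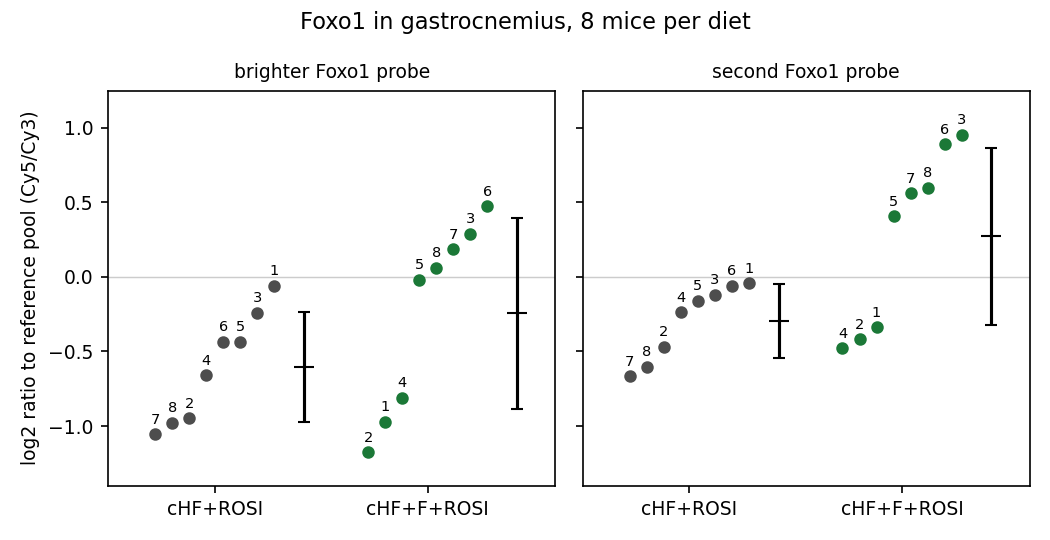
Foxo1 in each mouse on the brighter (left) and the second (right) probe, as the log2 ratio of Cy5 to the Cy3 reference pool (y axis), for 8 cHF+ROSI and 8 cHF+F+ROSI mice ordered by value. Small numbers are replicate numbers, and the bars beside the points are the mean ± SD. In both panels cHF+F+ROSI replicates 3, 5, 6, 7 and 8 lie above all cHF+ROSI mice, and replicates 1, 2 and 4 lie among them, except replicate 2 on the brighter probe, which lies below them.

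Neither of the ubiquitin ligases passed the test between the diets. Fbxo32 encodes the substrate-binding part of a ligase complex that is a standard marker of muscle wasting. Its 1 probe lay between -1.42 and -0.02 (median -0.58) in the cHF+ROSI mice and between -1.04 and 0.10 (median -0.40) in the cHF+F+ROSI mice. The groups overlapped almost completely, with 1 cHF+F+ROSI mouse, replicate 6, above the highest cHF+ROSI mouse. The log2 difference was 0.15 ± 0.18 (SE; limma, p = 0.434, adjusted p = 0.899; exact permutation p = 0.485), with a 95% interval from -0.24 to 0.53. Trim63, a ligase of the sarcomere, lay between -0.40 and 0.46 (median 0.04) in the cHF+ROSI and between -0.45 and 0.59 (median -0.16) in the cHF+F+ROSI mice on its brighter probe. Its difference of -0.12 ± 0.13 (SE; limma, p = 0.385, adjusted p = 0.884; exact permutation p = 0.429) had an interval from -0.39 to 0.16. Cutting across the diets, cHF+ROSI replicate 6 had the lowest Fbxo32 and Trim63 of its group and cHF+F+ROSI replicate 1 those of the other group.

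A second probe that the files name Trim63 carries the accession AK052911, which had no match in RefSeq's table, and lies at chr4:133589380-133589439 of mm8, upstream of the brighter probe at chr4:133601186-133601245. On this probe cHF+ROSI replicate 1 lay at 1.24 and the other 7 cHF+ROSI mice between -1.66 and -1.06, while the cHF+F+ROSI mice lay between -2.13 and -1.39. The 1 high mouse is also the one with the dimmest array. The log2 difference was -0.54 ± 0.32 (SE; limma, p = 0.106, adjusted p = 0.727; exact permutation p = 0.0600) with this mouse and -0.21 without it. The 2 Trim63 probes followed each other only weakly across mice (r = 0.23 over 16 deviations from the diet means), so the second was kept apart from the gene's other probe.

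The growth arrest genes Cdkn1a and Gadd45a, and Sesn1, were spread widely among mice within a diet, and none passed the test between diets. Cdkn1a, the cell cycle inhibitor p21, lay between -0.86 and 0.22 (median -0.14) in the cHF+ROSI mice and between -1.15 and 0.06 (median -0.43) in the cHF+F+ROSI mice. Its probe was spotted 10 times on each array and these spots were averaged. The log2 difference was -0.22 ± 0.17 (SE; limma, p = 0.201, adjusted p = 0.809; exact permutation p = 0.246), smaller in size than the SD among the mice of either diet (0.37 in each). The 3 cHF+F+ROSI mice with the lowest Cdkn1a, replicates 4, 2 and 1, were the 3 with the lowest Foxo1.

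Gadd45a, a stress-induced gene that rises in denervated and fasted muscle, lay between -0.14 and 0.87 (median 0.05) in the cHF+ROSI mice, where replicates 4 and 7 stood at 0.84 and 0.87 and the others at 0.21 or below. In the cHF+F+ROSI mice it lay between -0.21 and 0.29 (median 0.13), without such high values. The log2 difference of -0.15 ± 0.14 (SE; limma, p = 0.299, adjusted p = 0.854; exact permutation p = 0.368) did not pass. Sesn1, a stress-responsive regulator of mTORC1, had 3 probes, on which the differences were -0.05, -0.02 and 0.02 with SEs of 0.12 to 0.13. On its brightest probe the cHF+ROSI mice lay between -0.34 and 0.53 (median 0.02) and the cHF+F+ROSI mice between -0.40 and 0.37 (median -0.02). The 95% interval on that probe ran from -0.31 to 0.21, and the 2 diets overlapped throughout.

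Klf15, a glucocorticoid-induced factor that drives amino acid breakdown in muscle, lay between 0.43 and 1.63 (median 1.21) in the cHF+ROSI and between 0.64 and 2.00 (median 1.31) in the cHF+F+ROSI mice on its brighter probe. The difference was 0.15 ± 0.21 (SE; limma, p = 0.484, adjusted p = 0.913; exact permutation p = 0.522), and 0.05 ± 0.14 on the second probe. cHF+F+ROSI replicates 3, 5, 6 and 7, all of them high in Foxo1, lay at 2.00, 1.52, 1.58 and 1.65, but replicate 8, also high in Foxo1, was among the lowest at 0.66.

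None of the 3 autophagy members passed the test between the diets. Gabarapl1 encodes a ubiquitin-like protein of the autophagosome membrane. On its brighter probe the cHF+ROSI mice fell into 4 between -0.38 and -0.18 and 4 between 0.17 and 0.23, and the cHF+F+ROSI mice lay between -0.58 and -0.02 (median -0.25). None of the cHF+F+ROSI mice reached the level of the 4 upper cHF+ROSI mice, replicates 4, 6, 1 and 7. The log2 difference was -0.21 ± 0.10 (SE), with an interval from -0.43 to 0.01, and did not pass (limma, p = 0.0634, adjusted p = 0.687; exact permutation p = 0.0869). The second probe gave -0.17 ± 0.08 (limma, p = 0.0571, adjusted p = 0.682; exact permutation p = 0.0718). It had r = 0.54 with the brighter probe over the deviations and did not show the same split. There cHF+ROSI replicates 4 and 6 lay at -0.34 and -0.22, below cHF+F+ROSI replicate 5 at -0.13. Both probes lay just outside the unadjusted limit: the second passed it under 4 of 13 other processing settings, and leaving out 1 mouse brought the brighter probe within it for 4 mice and the second for 6. The smallest adjusted p among these fits was 0.432. The Cy5 signal of the mice differed by -0.08 on the brighter and -0.18 on the second probe (exact permutation, p = 0.677 and 0.353). The Cy3 signal of the pool differed by -0.03 and -0.12 (exact permutation, p = 0.630 and 0.0448).

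Map1lc3b encodes LC3B, the protein whose lipid-bound form is the usual marker of autophagosomes. On its brighter probe the cHF+ROSI mice lay between -0.01 and 0.27 (median 0.14) and the cHF+F+ROSI mice between 0.05 and 0.39 (median 0.25), of which 4 stood above the highest cHF+ROSI mouse. The difference of 0.10 ± 0.06 (SE; limma, p = 0.0776, adjusted p = 0.710; exact permutation p = 0.0710) was not seen on the second probe, which gave -0.03 ± 0.06 (limma, p = 0.700). The 2 probes had different signs and followed each other moderately across mice (r = 0.48 over 16 deviations). Bnip3, a mitochondrial receptor for autophagy, lay between -0.06 and 0.89 (median 0.63) in the cHF+ROSI and between 0.60 and 0.92 (median 0.76) in the cHF+F+ROSI mice. The lowest of these was cHF+ROSI replicate 1, far below the next at 0.54, and the log2 difference of 0.16 ± 0.10 (SE; limma, p = 0.135, adjusted p = 0.748; exact permutation p = 0.147) fell to 0.07 without that mouse.

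**Figure D2:**
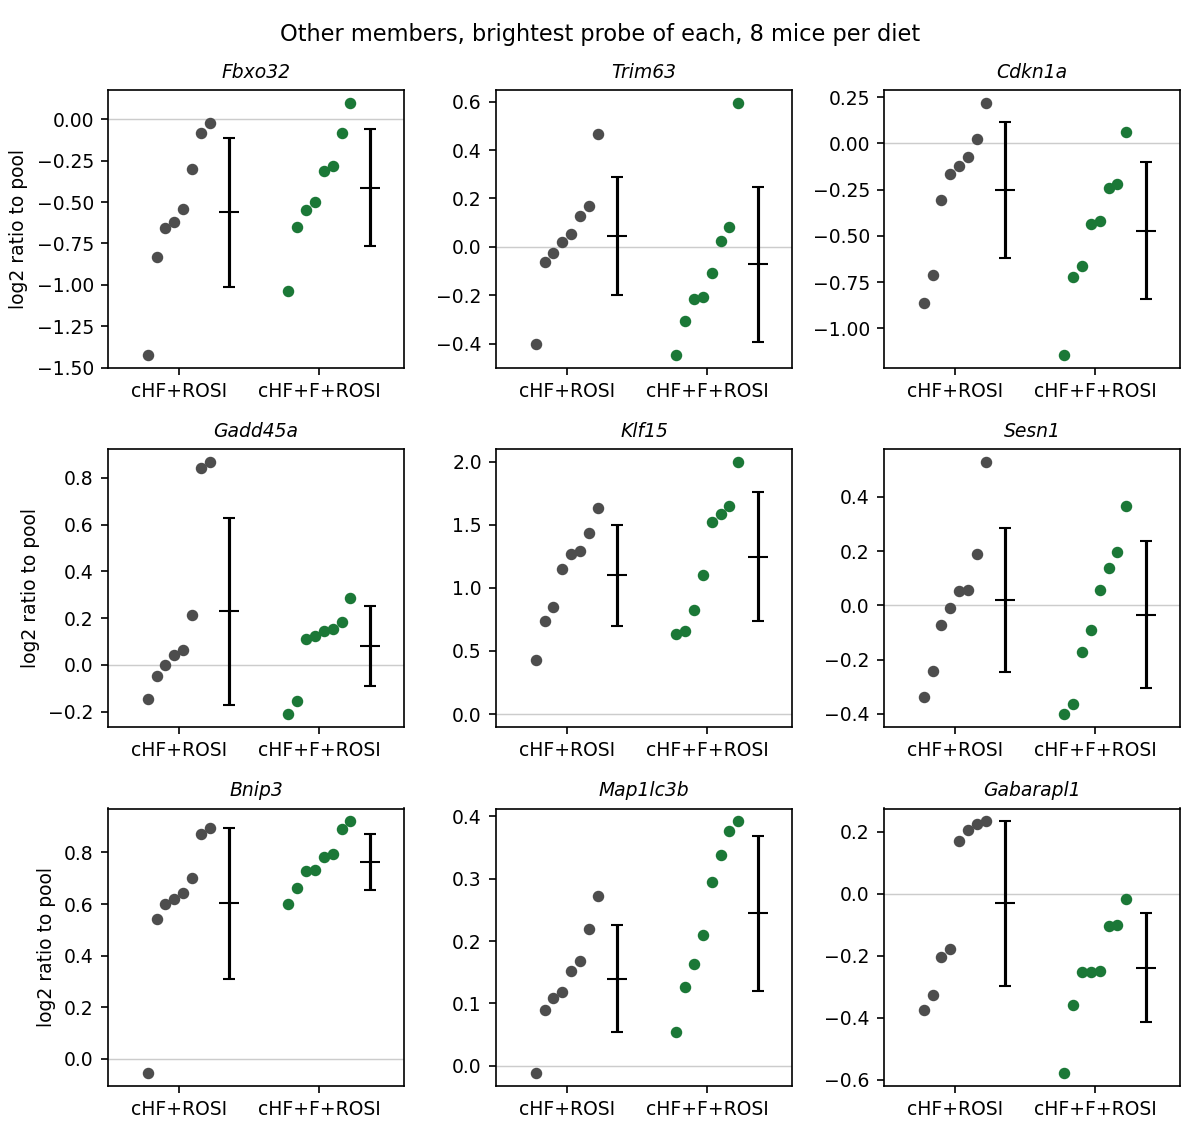
The other 9 genes in each mouse on their brightest probe, as the log2 ratio to the reference pool (y axis, scaled to each gene), for 8 cHF+ROSI and 8 cHF+F+ROSI mice ordered by value, with the mean ± SD beside the points. The diets overlap for every gene, and single mice stand apart, such as the cHF+ROSI mouse at -0.06 for Bnip3.

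Over the 17 probes, 8 were higher and 9 lower in the cHF+F+ROSI mice. The 2 diets overlapped on each of them, but the share of all probes with such overlap was not computed, so this describes no trait of the members. At an unadjusted p of up to 0.05, 1 of the 17 member probes passed, the second Foxo1 probe, while 7.44% of all probes tested did so, 3.49% of them higher and 3.95% lower. At an adjusted p of up to 0.05, 0 of the 17 passed in limma (1 at an unadjusted p, as given above, and 1 by the methods' t-test), against 0.0155% of all probes, and the adjusted p of the members ran from 0.544 to 0.987. The median log2 difference was -0.02 over the member probes and -0.001169 over all probes. The median size of the difference was larger in the members, 0.15 against 0.05, but so was the median SD among mice of the same diet, 0.28 against 0.14. Foxo1 was near the top of that order: its within-diet SD of 0.52 on the brighter probe exceeded that of 98.5% of all probes. Only Map1lc3b, with 0.11 and 0.13 on its 2 probes, was less variable than the median probe.

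**Figure D3:**
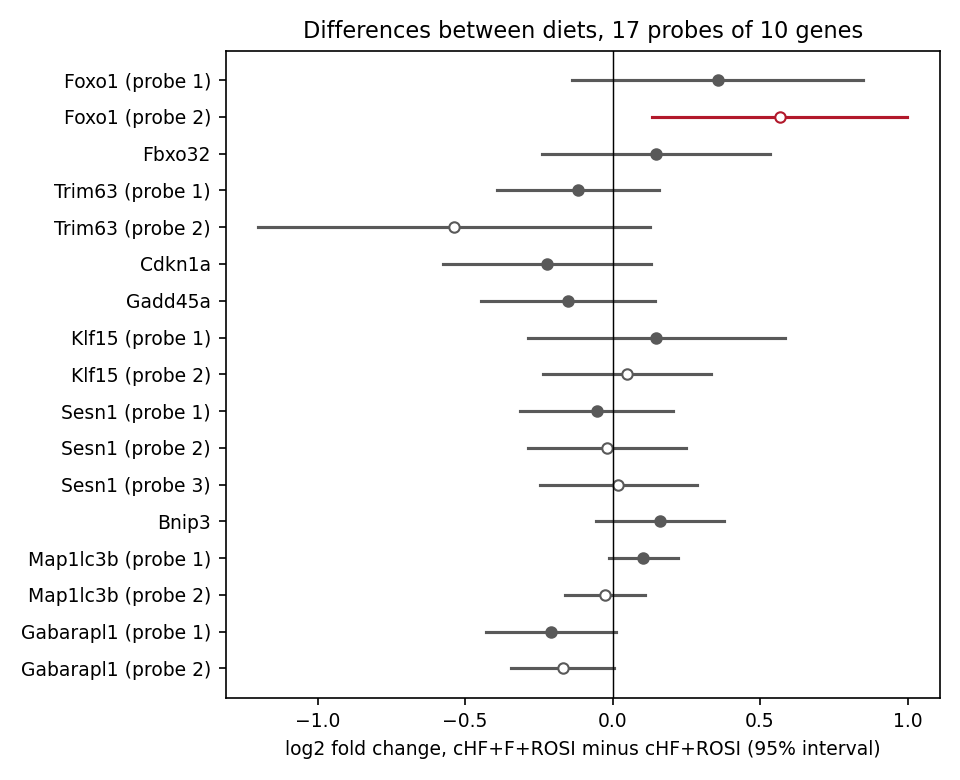
Log2 difference (cHF+F+ROSI minus cHF+ROSI, x axis) of the 17 probes of 10 genes, with 95% intervals from the limma fit over 16 mice. Filled points are the brightest probe of a gene, open points its other probes, and red marks an unadjusted p of up to 0.05, reached by the second Foxo1 probe at 0.57.

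Whether the members moved with Foxo1 from mouse to mouse, apart from diet, was asked by correlating each with the brighter Foxo1 probe over the 16 deviations from the diet means. Cdkn1a was the one member of 9 that passed. It had r = 0.68 (permutation within diets, p = 0.00404, adjusted p = 0.0364 over 9 relations) and rho = 0.67 (permutation p = 0.00722, adjusted p = 0.0650). Among all other probes, 263 of 19293 had a higher r with Foxo1 than Cdkn1a. Without the 2 mice farthest from the median of Foxo1, cHF+F+ROSI replicates 2 and 1, r was 0.72 and rho 0.47, and neither passed with 14 mice (permutation, adjusted p = 0.105 and 0.802). With slide or replicate number as a block it no longer passed (r = 0.63 and 0.58, permutation, adjusted p = 0.0797 and 0.115). The relation lay near the limit: r stayed between 0.62 and 0.74 when any 1 mouse was left out, and its adjusted p then exceeded 0.05 in 12 of 16 cases. With the second Foxo1 probe it passed as well, and pooled over the diets r was 0.50 (permutation, adjusted p = 0.431).

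None of the other 8 members, the ubiquitin ligases included, passed. Fbxo32 had r = 0.32 and Trim63 r = 0.31 with Foxo1 (permutation, adjusted p = 0.506 for each), and Map1lc3b, Klf15 and Sesn1 had 0.32, 0.28 and 0.27. Bnip3 had r = -0.02, Gadd45a -0.17 and Gabarapl1 -0.17. All of these had adjusted p of 0.506 or above (permutation over 16 mice). They are values of the brightest probe of each gene. On the other probes, which were not tested, r was 0.49 for Klf15, 0.35 for Trim63, 0.29 for Map1lc3b, 0.08 for Gabarapl1 and 0.07 and -0.08 for Sesn1. Without the same 2 mice, the r of Fbxo32 was 0.11, that of Trim63 0.08, that of Map1lc3b 0.04, that of Sesn1 -0.01 and that of Klf15 -0.11. All 5 were thus lower without those mice, but other mice mattered too: without cHF+F+ROSI replicate 6 alone the r of Trim63 was 0.07. By rank, Fbxo32, Trim63, Sesn1 and Map1lc3b stayed positive without the 2 mice (rho = 0.30, 0.22, 0.14 and 0.12), and Klf15 did not (rho = -0.08). Of the 9 members 1 had an r of at least 0.5 in size, and of all probes 13.6% did. The quartiles of r over all probes were -0.21 and 0.30. The values over both diets combined opposite signs for several members, given here as a description over 8 mice each. Foxo1 levels of the cHF+F+ROSI mice fell into 3 low and 5 high ones. Within these mice the r with Foxo1 was 0.82 for Cdkn1a, 0.72 for Klf15, 0.69 for Bnip3, 0.66 for Sesn1, 0.61 for Trim63, 0.57 for Fbxo32, 0.56 for Map1lc3b and 0.02 for Gadd45a, and -0.47 for Gabarapl1. Within the cHF+ROSI mice it was 0.50 for Cdkn1a, 0.12 for Gabarapl1 and 0.04 for Fbxo32, and -0.70 for Klf15, -0.48 for Bnip3, -0.40 for Sesn1, -0.38 for Gadd45a, -0.36 for Trim63 and -0.29 for Map1lc3b. The r of all probes within a single diet was not computed, so these values have no background beside them. Whether the diets differed in these relations was not tested.

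**Figure D4:**
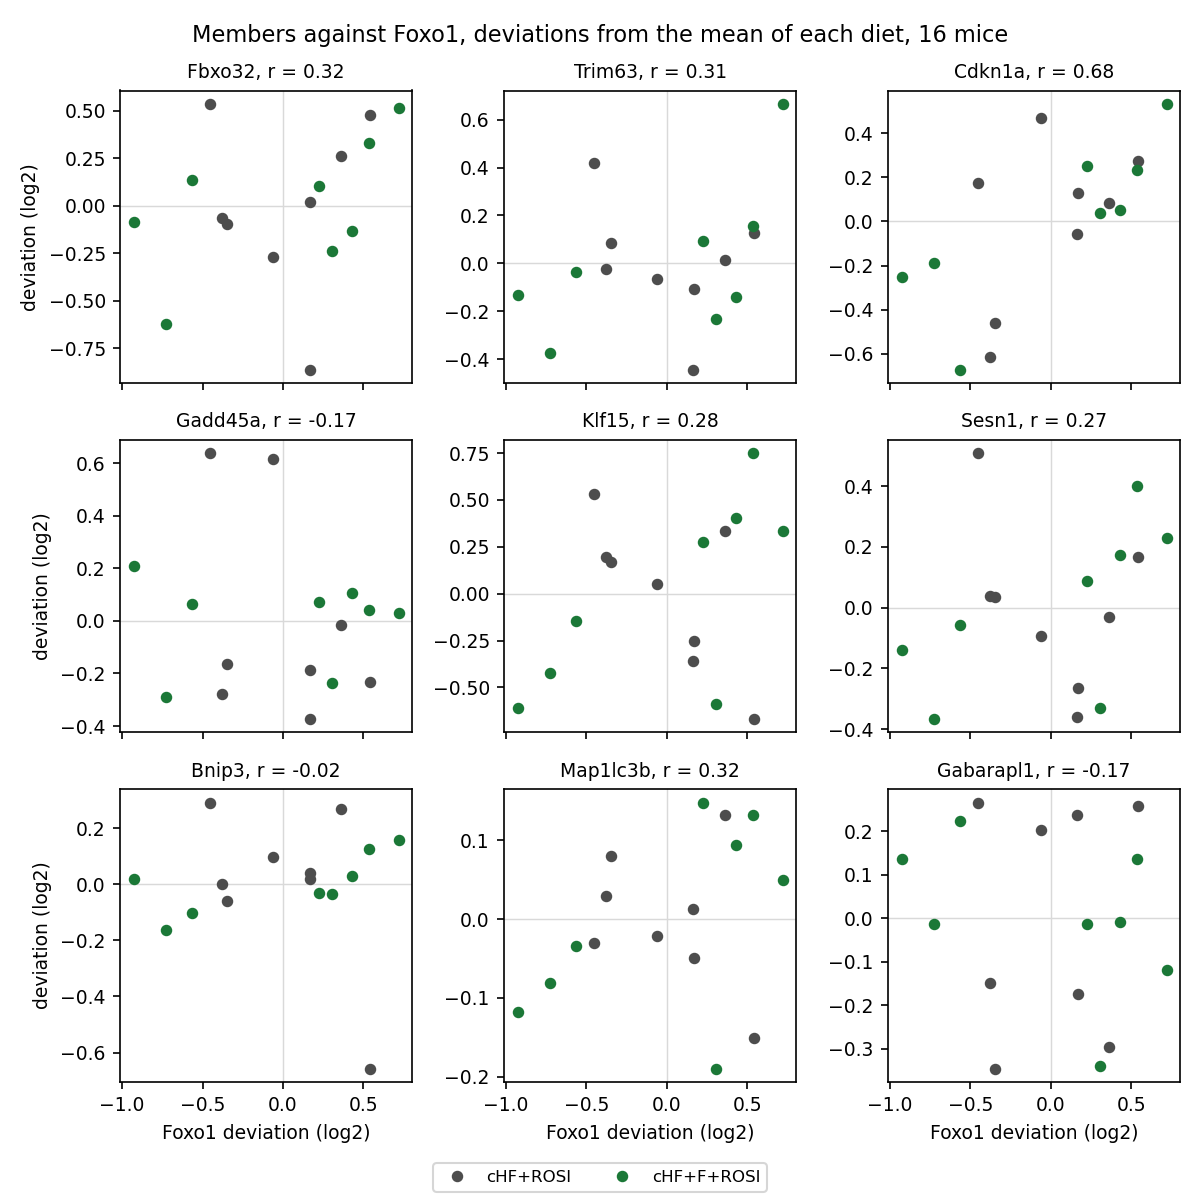
Each of the other 9 genes (y axis) against Foxo1 on its brighter probe (x axis), both as log2 deviations from the mean of the diet, 16 mice, grey for cHF+ROSI and green for cHF+F+ROSI. Points of both diets rise with Foxo1 for Cdkn1a (r = 0.68), while for Bnip3 (r = -0.02) and Klf15 the green points rise (r = 0.69 and 0.72) and the grey ones fall (r = -0.48 and -0.70).

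Several members moved together from mouse to mouse in pairs that did not include Foxo1. Foxo1 was not removed from these correlations, and its part in them was not tested. Of the 45 pairs among the 10 genes, 7 passed an adjusted p of up to 0.05 over the 45, and 6 of the 7 did not involve Foxo1. The share of passing pairs among other probes was not computed. The 2 ubiquitin ligases, Fbxo32 and Trim63, formed the tightest pair, with r = 0.87 and rho = 0.89 (permutation, adjusted p = 0.0018 and 0.00045). As a background, 5 of 19293 other probes had a higher r with Fbxo32 than Trim63 had, and for the 7 pairs this number ran from 5 to 517. Without the 2 mice farthest from the median of Fbxo32, r was 0.81. On its brightest probe Sesn1 moved with both, at r = 0.81 with Trim63 (rho = 0.84) and r = 0.80 with Fbxo32 (rho = 0.76). The adjusted p for r was 0.00596 for each (permutation). Once the 2 mice farthest from the median of Trim63 or of Fbxo32 were left out, r was 0.85 and 0.72. That Sesn1 probe had r = 0.83 and 0.40 with the other 2 Sesn1 probes, on which no pair was tested. Trim63 and Sesn1 are the 2 genes whose promoter windows held the forkhead motif. The part of the motif in their relation was not tested, and no window of Fbxo32 was analysed.

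Klf15 was a member of 3 further pairs. It moved with Map1lc3b at r = 0.84 (rho = 0.81; permutation, adjusted p = 0.00596), with Sesn1 at r = 0.73 (rho = 0.74; adjusted p = 0.0215, permutation) and with Bnip3 at r = 0.64 (rho = 0.68; adjusted p = 0.0133, permutation). Without the 2 mice farthest from the median of Klf15, these were 0.77, 0.94 and 0.67. Klf15 with Bnip3 lost its call without cHF+ROSI replicate 1, the mouse with the lowest value of both (r = 0.59, permutation, adjusted p = 0.0659), and without that mouse 11 pairs passed in place of 7. The number of pairs that passed depended on the scaling of the arrays: it was 4 after median centring, 3 after scale normalization and 1, Fbxo32 with Sesn1, from the Cy5 signal alone, but 10 in the authors' normalized table. The r of Fbxo32 with Trim63 was 0.71 in Cy5 alone and 0.53 after scale normalization. That of Klf15 with Sesn1 fell to 0.30 and 0.36 under the same settings. Fbxo32 with Sesn1 had 0.80 and 0.61, and Trim63 with Sesn1 0.66 and 0.89. Values from a single mouse's array are shared by all genes measured on it, and the part of the array in these relations was not tested.

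**Figure D5:**
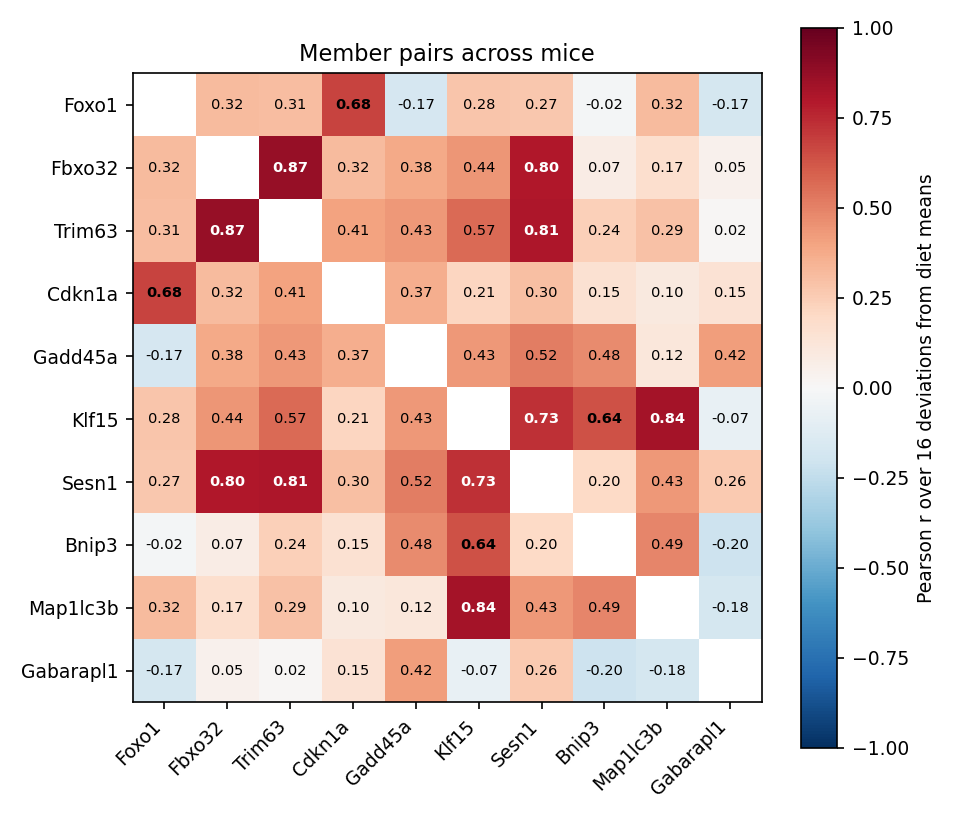
Pearson r between the 10 genes over 16 deviations from the diet means, brightest probe of each (red positive, blue negative). Bold values have an adjusted p of up to 0.05 over 45 pairs, and lie among Fbxo32, Trim63 and Sesn1 (0.80 to 0.87), between Klf15 and Sesn1, Bnip3 or Map1lc3b (0.64 to 0.84), and between Foxo1 and Cdkn1a (0.68).

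The 10 genes most like Foxo1 across the 16 deviations, out of all probes with a gene symbol, were Tob2 (r = 0.89), Ddit4 (0.88), Glul (0.88), Il15ra (0.88), Klf13 (0.88), Ankrd9 (0.87), Als2cr13 (0.87), Usp2 (0.87), Arrdc2 (0.86) and Tiparp (0.86). These are the highest of 19308 values and are given as a description. In limma, 0 of the 10 differed between diets at an unadjusted or adjusted p of up to 0.05, with log2 differences from -0.77 for Ddit4 to 0.30 for Als2cr13. On a list of 17 glucocorticoid target genes, of which 14 were kept, 9 had an r with Foxo1 of at least 0.5 in size, against 13.6% of all probes, and all 9 were positive. They were Ddit4, Glul, Fkbp5 (r = 0.83), Per1 (0.77), Klf9 (0.72), Cebpb (0.67), Mt1 (0.66), Tsc22d3 (0.64) and Pik3r1 (0.64). Klf15 of this list had 0.28 on its brighter probe, the one counted, and 0.49 on its second. On the other lists described below, an r of at least 0.5 in size was found for 3 of the 14 FoxO genes and regulators besides Foxo1 itself, 4 of 15 ubiquitin ligase genes, 4 of 16 p53 and growth arrest genes, 4 of 15 metabolic FoxO targets, 3 of 10 autophagy receptors, 3 of 24 genes of autophagy initiation and conjugation, 3 of 18 ATF4 targets, 3 of 12 denervation genes and 1 of 12 lysosome genes.

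Genes around the members were followed on 10 lists of the pathway. Of 146 genes with a kept probe, the members among them, 11 were higher and 8 lower in the cHF+F+ROSI mice at an unadjusted p of up to 0.05, which is 13% against 7.44% of all probes, and 0 passed after adjustment (limma, smallest adjusted p = 0.0917). Their median log2 difference was -0.02. The lists were chosen with earlier results of these data known, so the 13% is not independent evidence. Of 15 genes of FoxO and its regulators, Sirt1, a deacetylase of FoxO proteins, was lower (-0.28 ± 0.13 SE), and 0 were higher. Of 15 muscle ubiquitin ligase genes, the proteasome subunit Psmd11 on that list was lower (-0.25 ± 0.08) and the remaining 14 did not pass. Of 24 genes of autophagy initiation and conjugation, Gabarapl2, a close relative of Gabarapl1, was lower (-0.16 ± 0.06), while 0 of 10 autophagy receptors passed.

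Of 12 lysosome genes, Ctsb, the protease cathepsin B, was higher (0.12 ± 0.06) and Hexa, a glycosidase, lower (-0.13 ± 0.05). Of 16 p53 and growth arrest genes, Ccng1 was higher (0.28 ± 0.10) and Gadd45g, a relative of Gadd45a, lower (-0.50 ± 0.18). Hsd11b1, which regenerates active glucocorticoid inside cells, was the 1 glucocorticoid list gene that passed (0.20 ± 0.09). Among 15 metabolic targets of FoxO, Ccrn4l (0.40 ± 0.15), the glucose transporter Slc2a4 (0.22 ± 0.08) and Cpt1b (0.14 ± 0.06) were higher and Cited2 (-0.41 ± 0.13) and Bcl2l11 (-0.20 ± 0.08) lower. Of these, Ccrn4l had r = 0.75 and Bcl2l11 r = -0.69 with Foxo1 across mice. On the list of ATF4, a factor of the amino acid response, the calls were Mthfd2 (0.61 ± 0.11), Trib3 (0.72 ± 0.15), Asns, Atf5 and Psat1, all higher, and 0 of 18 were lower. The study listed Mthfd2 and Trib3 from these same samples, so these calls are not independent evidence. Of 12 denervation genes, Ncam1 was lower (-0.14 ± 0.06). None of these genes passed after adjustment over all probes. In the exact permutation test Sirt1, Hsd11b1 and Atf5 lay outside 0.05 (p = 0.0702, 0.0533 and 0.0628), and the other list genes called stayed within it.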

How the data were processed

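RNA of single mice was labelled with Cy5 and hybridised with a Cy3-labelled equimolar pool on 2-colour Agilent arrays without dye swaps. The deposited scanner files hold spot intensities, which the authors extracted with Feature Extraction (10.5.5.1 in the submitters' processing notes, 10.5.1.1 in the file headers). The authors joined scans at a low and a high laser power, and their deposited table of normalized log2 values served as an alternative. Median signals were background-corrected (normexp, offset 50) and scaled by loess within arrays in limma 3.58.1 (R 4.3.3). Probes were kept where the mean signal was at least 2 times background in both dyes, and spots of 1 probe were averaged. This left 19398 of 41174 probes. Spots flagged as outliers were dropped. Diets were compared in limma (lmFit, eBayes), with Benjamini-Hochberg adjustment over all 19398 probes, and with exact two-sided permutation over 12870 regroupings of the mice, of which the smallest possible p is 0.000155.

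Deviations from the diet mean were correlated on the brightest probe of each gene, with 100000 permutations within diets, adjusted over 9 relations or 45 pairs. Each sample was a single mouse on 1 array, so the tests set differences against a spread in which mice and arrays cannot be told apart. The cHF+ROSI mice were also labelled for another study, per the labels. Same-numbered mice deviated together (r above 0.1) in 4 of 8 pairs (r from -0.34 to 0.73). This cannot decide whether replicate numbers pair the mice, and the main tests did not pair them. No 2 arrays were identical. Text names every probe of the 10 genes, list genes with an unadjusted p of up to 0.05 and the 10 genes most like Foxo1. The genes, lists and tests were chosen with earlier results of these data known. Of the 17 member probes, 16 were matched to RefSeq by accession. Probe coordinates are those of mm8 in the files, promoter windows those of GRCm38.p6, and the 2 were not mixed. The number of arrays limits the precision. Alternatives were other background corrections, scalings and filters, the Cy5 signal alone, slide and replicate blocks, array weights, the methods' t-test and leaving out each mouse. The relations among all member pairs, the glucocorticoid list and the other Foxo1 probe were added after seeing the data. Scripts were tested on simulated data.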

Additional observations from a re-analysis of the deposited data

Results flagged for a closer look

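Single mice stood apart from the rest of their diet on 3 of 17 probes, with 34 groups of 8 mice examined and about 1 in 20 flagged by chance. On the second probe named Trim63, cHF+ROSI replicate 1 lay at 1.24 (log2 ratio to the pool) and the next mouse at -1.06. The same mouse had the lowest Bnip3, at -0.0551 against 0.54 in the next mouse. On the second Map1lc3b probe, cHF+ROSI replicate 7 lay at 0.20 and the next mouse at 0.00023. cHF+ROSI replicate 1 also had the lowest array signal, a median Cy5 signal of 2.33 times background, and the part of that in its values was not tested.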

How the results depend on the processing

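The arrays measured 8 mice per diet, which spread widely in these genes, and 1 reference channel without dye swaps. Of 493 fold changes of member probes recomputed under alternatives, 469 had the same direction and 24 another. None had an adjusted p of up to 0.05 in limma (smallest 0.246). A signal of at least 3 times background kept 16 of the 17 probes. Where values moved, the cause was not tested. The second Foxo1 probe passed an unadjusted p of up to 0.05 in all 13 other settings and without any 1 mouse.

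The log2 difference of the brighter Foxo1 probe was 0.42 after scale normalization and 0.53 with array weights, both within the unadjusted limit of 0.05 (limma, adjusted p = 0.957 and 0.488), and 0.57 on the second probe. Without 1 mouse it ran from 0.25 to 0.49. Member probes at an unadjusted p of up to 0.05 numbered 2 in place of 1 after median centring or scale normalization, in Cy5 alone, in the authors' table, without the filter and with array weights, and 1 to 4 without 1 mouse. Of all probes 1444 passed, against 818 after median centring, 962 after scale normalization and 1179 to 1977 without 1 mouse. With the replicate number as a block, Foxo1 differed by 0.36 (limma, adjusted p = 0.752), 2 member probes passed and 0 members were related to Foxo1. Whether the replicate numbers pair the mice cannot be told. The count of members related to Foxo1 was also 0 after median centring or scale normalization, in Cy5 alone, with slide as a block, by Spearman's rho, without the 2 farthest mice and pooled over diets, and 0 to 1 without 1 mouse. Related pairs numbered 4, 3 and 1 after median centring, after scale normalization and in Cy5 alone, and 5 to 11 without 1 mouse. Glucocorticoid list genes with an r of at least 0.5 in size numbered 5 after scale normalization and 9 to 11 without 1 mouse.

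Directions that turned were those of values that had not passed. Klf15 was at -0.13 after scale normalization and -0.0118 in Cy5 alone on its brighter probe. Sesn1 was at 0.0179 in the authors' table and 0.0497 with array weights on its brightest probe, and at 0.0785 in Cy5 alone, 0.0176 in the authors' table and 0.0488 with array weights on its second. The second Map1lc3b probe was at 0.0161 with Feature Extraction's processed signals, 0.0848 after scale normalization and 0.0466 in the authors' table. Without 1 mouse, the second Klf15 probe ran from -0.0210 to 0.10, the Sesn1 probes from -0.11 to 0.0184, from -0.0663 to 0.0657 and from -0.0508 to 0.0843, and the second Map1lc3b probe from -0.0558 to 0.00989. The r with Foxo1 of Klf15 was -0.11 and that of Sesn1 -0.00898 without the 2 farthest mice, and that of Gabarapl1 0.16 after scale normalization. The r of Bnip3 was 0.0129 without background correction, 0.0067 with processed signals, 0.0598 after median centring, 0.0881 in Cy5 alone, 0.0435 in the authors' table, 0.24 by Spearman, 0.11 pooled and 0.10 with the other Foxo1 probe, and -0.12 to 0.46 without 1 mouse.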
